A study of Mus musculus with 8 samples.

Results

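Blood vessel cells and fibroblasts were searched for in single-cell RNA libraries of medulloblastoma, a cerebellar tumour, from Patched 1 deficient mice. The cells were chosen by detected genes. Cells needed 500 detected genes or more and no more than 10% of unique molecular identifiers (UMIs, each marking 1 captured RNA molecule) from mitochondrial genes, and a member had a UMI in at least 3 genes of 1 of 3 sets of 6 genes. The endothelial set was Cldn5, Pecam1, Flt1, Kdr, Cdh5 and Esam, the mural set was Rgs5, Vtn, Pdgfrb, Kcnj8, Abcc9 and Notch3, and the fibroblast set was Col1a1, Col1a2, Col3a1, Dcn, Lum and Slc6a13. The rule found 87 members among 16933 kept cells, which is 0.514% (exact Clopper-Pearson 95% interval 0.412% to 0.633%). Each member was given to the set with most detected genes, which made 32 endothelial, 24 mural and 30 fibroblast cells, and 1 tied cell was kept apart.

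The series held 1 library of a relapsed tumour taken at 3 weeks and 1 of a primary tumour, so no difference between them has a replicate check. It also held 6 bulk libraries of sorted astrocytes, 3 labelled stroma B and 3 labelled stroma A. All 8 libraries carried the Patched 1 deficient genotype, and the labels name no Cre line, age or number of mice, nor which stroma came from which tumour. The tumours were dissociated with papain and sorted by flow cytometry with a gate that the labels do not describe. The description of the relapsed library calls it primary, and its title and its source label were followed.

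As background, endothelial cells line blood vessels, and in the brain they form the blood-brain barrier through tight junctions and selective transporters. Mural cells wrap these vessels: pericytes sit on capillaries within the basement membrane, and smooth muscle cells with a contractile actin apparatus surround arterioles. Fibroblasts of the meninges and of the perivascular space secrete collagens and other matrix proteins, and those of the pia, arachnoid and dura express different transporters and transcription factors.

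The relapsed library held 7839 kept cells with a median of 7230 UMIs, and the primary library held 9094 with a median of 5431. The libraries shared 93 barcodes, none of them a member's. The 6 pituitary hormone genes summed to 9258 counts per 1000000 UMIs (CPM) in the other relapsed cells, against 3.87 CPM in the other primary cells, so the libraries differed in RNA of this gland. Members carried 162 to 233 CPM of these hormones in the relapsed library, against 0 to 61.4 CPM in the primary library, and its part in the results below was not tested.

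Each set was found in both libraries, and the fibroblast share was larger in the relapsed one. Fibroblast cells were 22 of 7839 in the relapsed library, or 0.281% (0.176% to 0.425%), against 8 of 9094 in the primary library, or 0.0880% (0.0380% to 0.173%). Mural cells were 14 and 0.179% (0.0977% to 0.299%) in the relapsed library, against 10 and 0.110% (0.0527% to 0.202%) in the primary library. Endothelial cells were 12 and 0.153% (0.0791% to 0.267%) in the relapsed library, against 20 and 0.220% (0.134% to 0.339%) in the primary library. Intervals of the fibroblast shares did not overlap, by a narrow margin (lower bound 0.176% against upper bound 0.173%), and those of the mural and the endothelial shares did. These intervals cover counting error only, while the sort, the dissociation and the piece of tissue taken also set such shares.

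Members near the threshold were few. With exactly 3 detected genes there were 3 relapsed endothelial cells with 6, 8 and 9 UMIs of the set, 1 relapsed fibroblast cell with 3, 1 primary endothelial cell with 23, 3 primary mural cells with 3, 3 and 5, and 2 primary fibroblast cells with 3 and 7. Just outside it, with 2 genes detected, stood 6 relapsed and 1 primary endothelial candidates, 11 and 18 mural ones, and 8 and 6 fibroblast ones. Rgs5, a G protein regulator of pericytes, was detected in 14 of 14 relapsed mural cells against 5 of 10 primary ones. The other 5 primary mural cells all carried Kcnj8, a potassium channel subunit that was also detected in 5.41% of the other primary cells, against 0.488% of the other relapsed cells. A filter chosen after the data were seen kept cells with at least 10 UMIs of their set. It kept 14 relapsed and 7 primary mural, 8 relapsed and 20 primary endothelial, and 21 relapsed and 6 primary fibroblast cells. The 3 primary mural cells it left out held 56.2% of the UMIs of their set, and 1 of them, with 31403 UMIs of which 3 were set UMIs, held 41.5%. Mural and endothelial values under this filter are given beside the results it moved most, as those of the stricter cells.

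**Figure D1:**
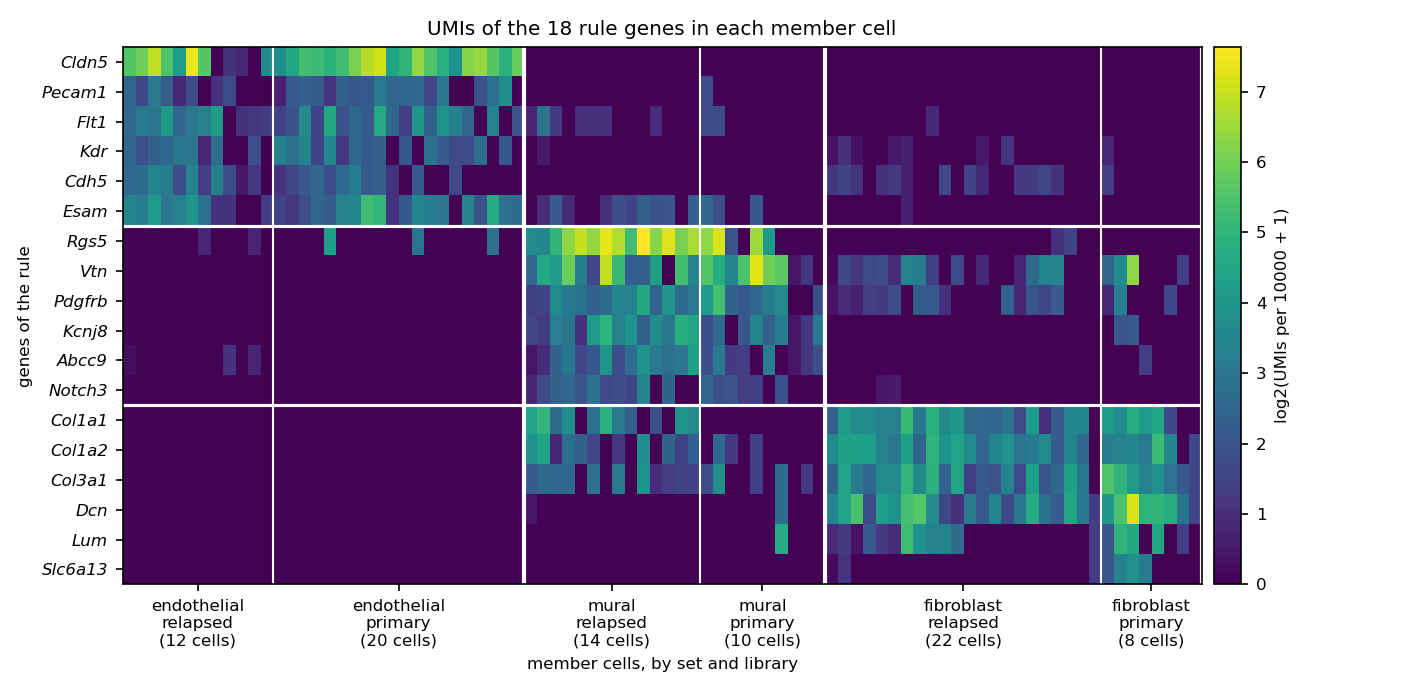
UMIs of the 18 genes of the rule (rows) in each endothelial, mural and fibroblast cell (columns, relapsed before primary in each set), as log2 of UMIs per 10000 plus 1. Collagen genes also appear in mural cells, mainly the relapsed ones, and Rgs5 is dark in 5 of 10 primary mural cells.

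The sets were described by 14 markers of each type, 6 of them the rule's own. All 14 endothelial markers had a UMI in endothelial cells of both libraries. Mural cells had 14 in the relapsed and 10 in the primary library, and fibroblast cells had 14 and 13. Pooled other kept cells had 14 and 14 endothelial, 14 and 14 mural, and 13 and 14 fibroblast markers. Such counts do not set members apart. Endothelial markers summed to 11575 and 11695 CPM in relapsed and primary endothelial cells, against 22.1 and 39.4 in other kept cells. Mural markers summed to 20939 and 6684 CPM in mural cells, against 33.5 and 27.8. Fibroblast markers summed to 6773 and 9289 CPM in fibroblast cells, against 195 and 121. These sums include the rule's genes. Slc6a13, a GABA transporter of meningeal fibroblasts, was in 3 of 22 relapsed and 4 of 8 primary fibroblast cells. Foxc1, a transcription factor of meningeal fibroblasts, was in most fibroblast cells of each library, with values below. These markers differed, and the cells are only called fibroblast here. The 3 sets were not sharply apart, since 8 relapsed mural cells also detected at least 3 fibroblast genes.

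Granule lineage markers were low but present in members. Markers of the granule lineage, from which this tumour arises, had a median of 10.0, 4.91 and 4.62 UMIs per 10000 in relapsed endothelial, mural and fibroblast cells, and of 9.23, 11.1 and 11.6 in primary ones. Other kept cells had a median of 43.1 in the relapsed and 39.1 in the primary library. The lower quartile of those other cells was passed by 4 relapsed and 7 primary members. In relapsed mural cells Zic1 made 74 of the 113 UMIs of these markers, in 12 of 14 cells, and Atoh1 and Neurod1 had 1 each. How much of this RNA came from tumour cells was not tested. The 8 microglia markers were at 0 in relapsed endothelial, relapsed mural and primary fibroblast cells, and the T, NK and B cell markers were at 0 in every set. Single cells held most of some foreign RNA: 1 relapsed mural cell had 220 of the 223 astrocyte marker UMIs of its set, and 1 primary mural cell had all 543 UMIs of the erythrocyte list.

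**Figure D2:**
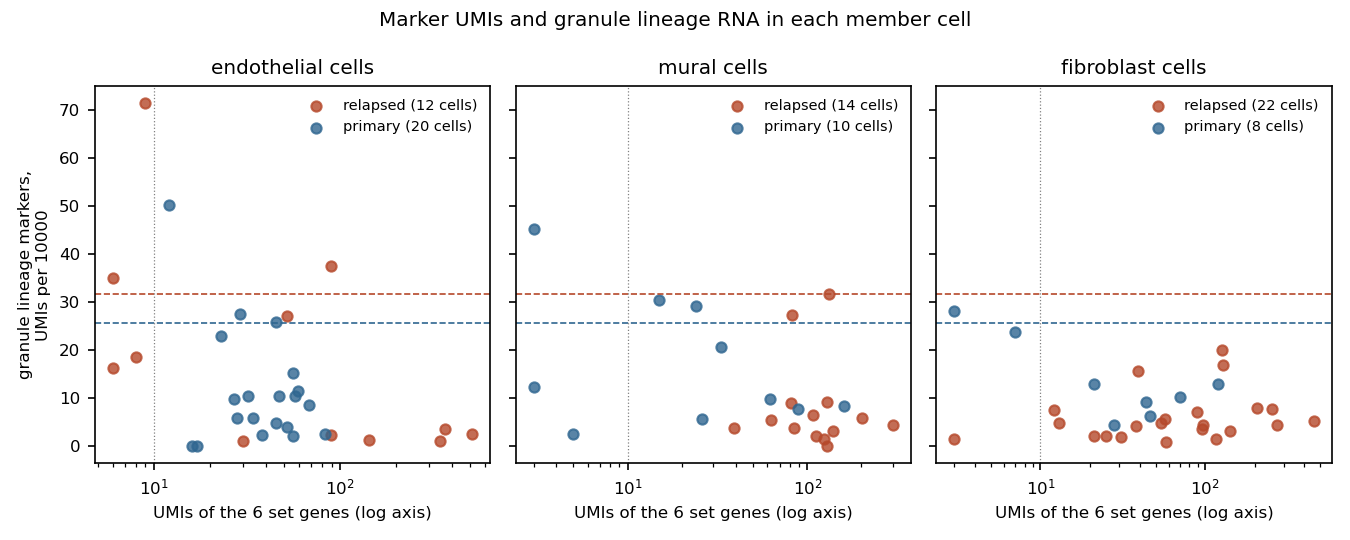
Granule lineage marker UMIs per 10000 (vertical axis) against UMIs of the 6 set genes (log axis) in each member. Dashed lines are the lower quartile of other kept cells, 31.6 in the relapsed and 25.7 in the primary library, and the dotted line is 10 set UMIs; 3 primary mural cells lie left of it.

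The 10 genes that led each set, with the rule's own left out, are a description, because the rule chose the cells. Endothelial cells had Sox17, an arterial transcription factor, at 232 CPM in 15 of 32 cells, against 0 in all other kept cells. They also had Tmem252, the guidance receptor Robo4 in 18 cells, the apelin receptor Aplnr in 16, and the adhesion receptor Adgrl4 in 22; Lrg1, Scgb3a1, Mal, AU021092 and Grrp1 completed the list. Mural cells had Higd1b, a pericyte gene, in 20 of 24 cells, the intermediate filament Des in 17, the small proteoglycan Aspn in 17, and the myosin kinase Mylk in 20, followed by Tbxa2r, Acta2, Ccl11, Gja4, Itga1 and Mcam. Fibroblast cells had the lipid carrier Apod in 28 of 30 cells, the lubricant Prg4 in 10, the collagen cross-linking enzyme Lox in 21, the adhesion protein Mpzl2 in 17, and the calcification inhibitor Mgp in 22, beside Trabd2b, Igfbp6, Mrap, Eya2 and Cyp1b1.

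Relapsed and primary endothelial cells differed in transporters, in genes of vessel subtypes and in stress genes. Levels below are CPM of UMIs summed over the cells of a set, with exact Poisson 95% intervals that cover counting error only. Cldn5, the main claudin of brain endothelium and the gene the rule leaned on most, was at 4756 (4477 to 5048) CPM in relapsed cells against 4016 (3679 to 4375) in primary cells, and was detected in 10 of 12 against 20 of 20. With the stricter cells the relapsed value was 6232 (5865 to 6617). Among the 2898 genes with at least 20 UMIs in these cells, the intervals were apart for 8.25% higher and 5.14% lower in the relapsed library.

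Nutrient transporters went in both directions. Slc16a1, the monocarboxylate transporter that carries lactate, was at 17.6 CPM in 2 of 12 relapsed cells against 699 CPM in 17 of 20 primary cells, 39.8-fold lower. Slco1c1, the thyroid hormone transporter, was at 57.0 CPM in relapsed against 591 in primary cells, and Slco1a4, an organic anion transporter, at 307 against 944. Tfrc, the transferrin receptor, had no UMI in relapsed cells against 215 CPM in 11 of 20 primary cells, at least 16.3-fold lower when set against a limit of 3 UMIs over the set. Slc2a1, the glucose transporter of the barrier, was higher, at 781 CPM (670.5 to 905) in relapsed against 376 (278 to 497) in primary cells. Slc3a2 and Slc7a5, the chains of the large neutral amino acid transporter, stood at 737 and 969.7 CPM in relapsed cells against 299 and 676 in primary cells. Across the barrier list, 18 of 22 genes had at least 10 UMIs, 6 of them higher and 12 lower, with a median log2 ratio of -0.51 against 0.11 over the 5155 genes measured; intervals were apart for 3 higher and 6 lower. The list thus held genes on both sides, and with the stricter cells its median was -0.18.

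Genes of fenestrated, arterial and venous vessels also differed. Plvap, which builds the diaphragms of fenestrated endothelium and is low in barrier vessels, was at 439 CPM (357 to 534) in 6 of 12 relapsed cells against 0 of 20 primary cells, at least 19.0-fold higher. Per cell its CPM had a lowest value of 0, a median of 38.9 and a highest of 4186 in relapsed cells, and was 0 in all primary cells. Plvap (ENSMUSG00000034845) lies on chromosome 8 at 71497765 to 71511752 of mm10. Ackr1, a chemokine-binding receptor of venules, went the other way, with 0 UMIs in relapsed cells against 361 CPM in 8 of 20 primary cells, but 63.8% of its UMIs came from 1 cell.

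Gja4, the arterial connexin, was at 570.4 CPM in 5 of 12 relapsed cells against 23.0 CPM in 1 of 20 primary cells, a ratio of 24.8 with a counting interval of 8.29 to 122. Efnb2, an arterial ephrin, was at 136 CPM in relapsed against 30.7 in primary cells, and Sox17 at 307 against 99.8. Slc38a5, an amino acid transporter of venous endothelium, was at 26.3 CPM in relapsed against 269 in primary cells. Vwf, the von Willebrand factor, was at 189 (137 to 254) against 276 (194 to 383), with overlapping intervals. Of the 14 genes of the artery and vein list 11 were measured, 8 higher and 3 lower, with a median log2 ratio of 1.48. Without the endothelial cell with most UMIs in each library that median was 0.51. The median over all genes was not recomputed for those cells.

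Other large endothelial differences were in genes of mixed function. Col18a1, a basement membrane collagen, was at 359.8 CPM in 7 of 12 relapsed cells against 0 in primary cells. Meis2, a homeobox factor, was at 294 CPM in 9 relapsed cells, and Acer2, a ceramidase, at 250.1 CPM in 6, both against 0 in primary cells. Igfbp5, a binding protein of insulin-like growth factors, was at 417 CPM against 0, with 78.9% of its UMIs in 1 relapsed cell. Of the genes that were lower, Lcn2, an iron-carrier binding protein induced in inflammation, had 0 CPM in relapsed against 292 CPM in 7 primary cells, and Vcam1, a leukocyte adhesion molecule, had 0 against 161 CPM in 4 primary cells. A single primary cell held 52.6% of the Lcn2 UMIs, and 1 held 76.2% of the Vcam1 UMIs.

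Stress genes differed alongside these. Of 18 measured genes of the immediate early and dissociation stress list, 16 were higher and 2 lower in relapsed endothelial cells, with a median log2 ratio of 1.33, and intervals were apart for 11 higher and 0 lower. Fos, an immediate early transcription factor, was at 298 CPM in 6 of 12 relapsed cells against 7.68 CPM in 1 of 20 primary cells. Hspa1a, a heat shock chaperone with a near-identical copy that makes its count uncertain, was at 377 against 7.68 CPM. The part of dissociation and depth in the endothelial results was not tested. Relapsed endothelial cells had a median of 14197 UMIs against 5323 in primary ones. In mural cells 9 of 12 measured genes of this list were higher and 3 lower, with a median log2 ratio of 1.54. Intervals were apart for 5 higher and 2 lower. Mural cells had a median of 9271.5 UMIs in the relapsed and 5028.5 in the primary library. The part of dissociation and depth in the mural results below was not tested either.

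Relapsed mural cells carried Acta2, Tagln, Actg2 and Col1a1, genes of smooth muscle and of collagen that were not detected in the primary ones. Acta2, the smooth muscle actin, was at 2639.8 CPM (2387 to 2912) in 10 of 14 relapsed cells against 0 (up to 48.7) in 10 primary cells, at least 66.6-fold higher. Its CPM per cell was 0 at the lowest, 215 at the median and 10716 at the highest in relapsed cells, so 1 cell dominated. That cell, with 20904 UMIs in all, held 56.3% of the Acta2 UMIs of its set. It detected 6 mural, 3 fibroblast and 3 endothelial genes of the rule, with 84, 122 and 17 UMIs of these sets. Among 1820 genes with at least 20 UMIs in mural cells, intervals were apart for 14.3% higher and 9.07% lower. Counting only primary cells with at least 10 set UMIs, Acta2 was at least 29.2-fold higher.

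Tagln, an actin-binding protein of smooth muscle, was at 1426 CPM in 5 of 14 relapsed cells against 0 in primary cells, at least 15.7-fold higher with the stricter cells. Actg2, the enteric smooth muscle actin, was at 398 CPM in 4 relapsed cells against 0, at least 4.39-fold higher with the stricter cells. The same relapsed cell held 72.1% of the Tagln, 78.3% of the Actg2, 59.3% of the Des and 31.7% of the Myl9 UMIs. Myl9, a myosin light chain, was more widely detected, at 1525 CPM in 12 of 14 relapsed against 317 CPM in 7 of 10 primary cells, a log2 ratio of 2.24 that was 1.11 with the stricter cells. Crip1, a small LIM domain protein, was at 1897 CPM in 14 relapsed against 225 CPM in 4 primary cells, or 453 in the stricter ones. Des was at 537 CPM in relapsed against 119 in primary cells, and its intervals overlapped with the stricter cells. All 9 measured genes of the 12 in the contractile list were higher in relapsed cells, with a median log2 ratio of 2.24 against 0.04 over 3649 genes; intervals were apart for 8. With the stricter cells that median was 1.25.

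Contractile genes are classic targets of serum response factor, which binds the CArG box, so the promoters of 2 contractile genes higher in relapsed cells are shown. Each line gives the 250 bases before the RefSeq start on the gene's own strand in build GRCm38.p6, with CArG boxes in capitals. Acta2 lies on the minus strand at chr19:34255374-34255623 and holds boxes that begin 84 and 34 bases before the start. Myl9 lies on the plus strand at chr2:156775214-156775463 and holds boxes that begin 161 and 99 bases before it.
Acta2: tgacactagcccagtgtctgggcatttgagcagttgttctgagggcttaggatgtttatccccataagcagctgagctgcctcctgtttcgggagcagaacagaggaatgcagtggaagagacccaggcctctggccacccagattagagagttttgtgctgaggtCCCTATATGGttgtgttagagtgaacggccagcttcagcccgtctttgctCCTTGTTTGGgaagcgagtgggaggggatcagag
Myl9: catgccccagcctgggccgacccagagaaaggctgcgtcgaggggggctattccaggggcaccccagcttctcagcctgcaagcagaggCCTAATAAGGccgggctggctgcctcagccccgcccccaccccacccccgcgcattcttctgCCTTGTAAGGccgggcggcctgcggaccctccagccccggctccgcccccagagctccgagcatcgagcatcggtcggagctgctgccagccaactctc
The box was searched on both strands with 1 inner letter other than A or T allowed. It was in 3 of the 10 contractile genes that had a promoter window (Acta2, Myl9 and Crip1), and in 9.98% of 32851 windows of 300 bases. The strict box was in 1 of the 10 (Myl9) and in 1.63% of all windows. A match is a description of these letters and not of binding.

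Most measured pericyte genes were also higher in relapsed mural cells. Rgs5 was at 6752 CPM in relapsed against 1968 in primary cells, a log2 ratio of 1.77 that was 0.58 with the stricter cells. Vtn, vitronectin, was at 2355 (2116 to 2613) CPM against 2549 (2202 to 2936), and with the stricter cells the primary value was 5765, above the relapsed one. Pdgfrb, the receptor that pericytes need for recruitment to vessels, was at 637 (516 to 778) CPM against 502 (355 to 689). With the stricter cells its primary value was 1117 (786 to 1539), above the relapsed one. These 3 genes belong to the rule and describe the cells only. Higd1b was at 2248 CPM in 14 of 14 relapsed against 436 CPM in 6 of 10 primary cells, or 996 in the stricter ones. Mcam, a cell adhesion molecule, was at 305 CPM in 12 relapsed against 26.4 CPM in 2 primary cells, or 60.4 in the stricter ones, which rests on 2 UMIs. Of the 17 genes in the pericyte list 15 were measured, 12 higher and 3 lower, with a median log2 ratio of 1.46; with the stricter cells it was 0.54. Gja4 was in 14 of 14 relapsed cells at 1035 CPM against 0 of 10 primary cells, at least 26.1-fold higher and at least 11.4-fold with the stricter cells.

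Matrix genes were higher in relapsed mural cells as well. Col1a1, a chain of type I collagen, was at 1366 CPM in 11 of 14 relapsed against 0 of 10 primary cells, at least 34.5-fold higher and at least 15.1-fold with the stricter cells. Of its 206 relapsed UMIs, 66 lay in the cell with most Acta2 and 60 in the cell with most astrocyte marker UMIs. Col4a1 and Col4a2, the chains of basement membrane collagen, were at 1665 and 1572 CPM in relapsed against 251 and 238 in primary cells, and were in 14 of 14 against 6 of 10 cells each. In the stricter primary cells they were at 513 and 483 CPM. Mgp was at 8271 CPM in 14 relapsed against 1070.0 CPM in 3 primary cells, or 2445 in the stricter ones. In the basement membrane list 11 of 12 measured genes were higher, with a median log2 ratio of 1.95, and in the fibrillar and matrix list 14 of 16 were, with a median of 1.89. With the stricter cells these medians were 1.09 and 1.07. Cells holding fibroblast RNA could also carry such transcripts, and 8 of the 14 relapsed mural cells had at least 3 fibroblast genes; their part was not tested.

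The largest differences toward the primary mural cells came mostly from 1 cell each. Wif1, a Wnt inhibitor, was at 0 in relapsed against 396 CPM in primary cells, 96.7% of it in 1 cell. Lyz2, a lysozyme of myeloid cells, was at 6.63 against 489 CPM, 97.3% in 1 cell; the 8 microglia markers had 14 UMIs in primary mural cells, 10 of them in 1 cell, and their part was not tested. Cxcl1, a neutrophil chemokine, was at 19.9 CPM in 2 relapsed against 925 CPM in 3 primary cells, 74.3% in 1 cell. Among cells with at least 10 set UMIs, Wif1 and Lyz2 were at 0 in primary cells, but Cxcl1 was at 2113 CPM. Among these cells the chemokine Ccl2 was at 6.63 CPM in 1 of 14 relapsed against 272 CPM in 4 of 7 primary cells. Ccl11 was at 113 CPM in 1 relapsed against 453 CPM in 5 primary cells. Intervals were apart for these 3 chemokines and overlapped for Cxcl12.

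Neuronal genes were also lower in relapsed mural cells. Ncam1, the neural cell adhesion molecule, was at 6.63 CPM in 1 of 14 relapsed against 423 CPM in 7 of 10 primary cells, and Gap43, a growth cone protein, at 6.63 against 317 CPM. Both are abundant in the other kept cells, at 226 and 343 CPM in the relapsed and 268 and 425 CPM in the primary library. With the stricter cells the primary values were 181 and 121 CPM. The Gap43 intervals then overlapped, and those of Ncam1, on 1 relapsed and 6 primary UMIs, did not. Granule lineage marker RNA had a higher median in primary mural cells, as given above. Both genes kept the sign when members above the lower quartile of this RNA in other kept cells were left out. The part of smaller amounts was not tested.

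**Figure D3:**
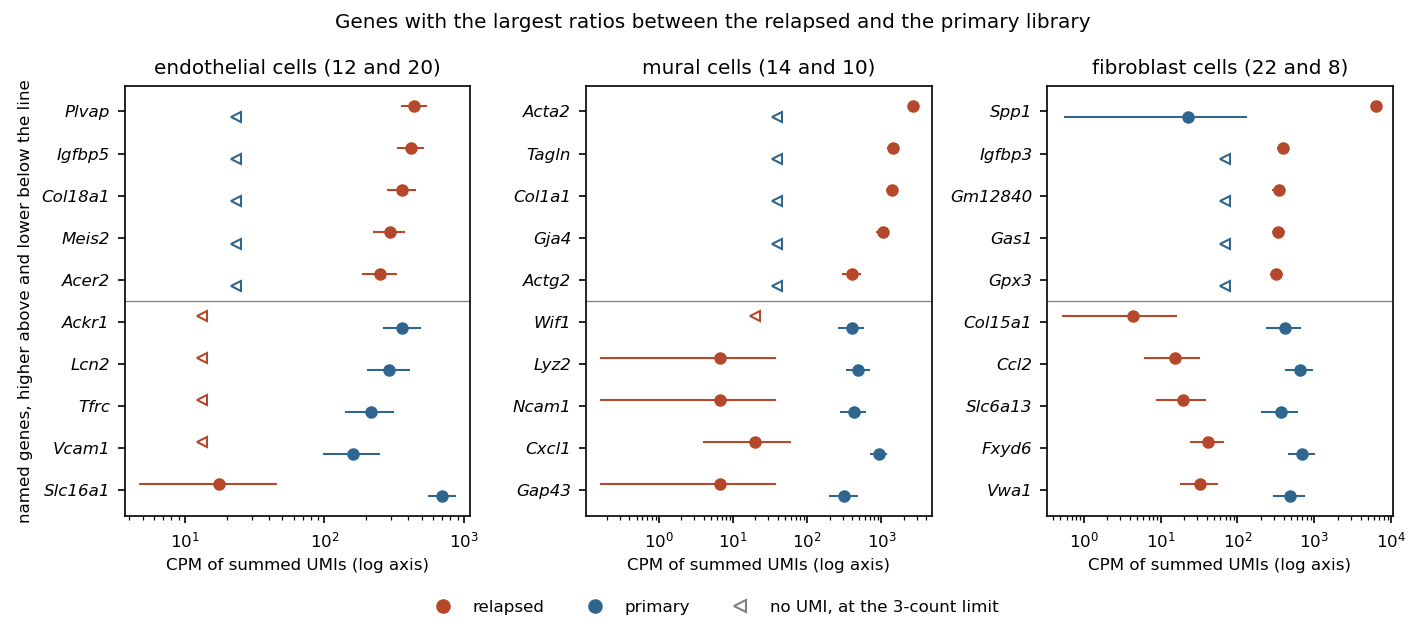
CPM of summed UMIs (log axis, bars are exact Poisson 95% intervals) for the 5 genes with the largest ratios in each direction in each set, relapsed in red and primary in blue. Open triangles mark 0 UMIs, drawn at the level of 3 UMIs; all 5 mural genes above the line had 0 UMIs in primary cells.

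Relapsed fibroblast cells carried Spp1, osteopontin, a secreted matrix phosphoprotein, in nearly every cell. It was at 6293 CPM (6064 to 6528) in 21 of 22 relapsed against 22.9 CPM (0.581 to 128) in 1 of 8 primary cells, where a single UMI was found. The ratio was 274, with a counting interval of 49.2 to 10840.3. Per cell its CPM was 0 at the lowest, 5906 at the median and 27204 at the highest in relapsed cells, against 0, 0 and 215 in primary cells. Spp1 was at 7.71 CPM in the other relapsed cells and at 59.1 CPM in the other primary cells. Relapsed fibroblast cells had a median of 14639.5 UMIs against 4821.5 in primary ones, and the part of depth in the fibroblast results was not tested. Among 3376 genes with at least 20 UMIs in fibroblast cells, intervals were apart for 4.09% higher and 4.06% lower. Spp1 (ENSMUSG00000029304) lies on chromosome 5 at 104435118 to 104441050 of mm10.

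Other secreted and surface proteins shared this direction. Igfbp3, a binding protein of insulin-like growth factors, was at 388 CPM in 16 of 22 relapsed against 0 of 8 primary cells, at least 5.63-fold higher. Gas1, a co-receptor for Hedgehog ligands, was at 339 CPM in 20 relapsed cells against 0 primary cells, at least 4.93-fold higher. Such bounds put 3 UMIs at 68.8 CPM in the 8 primary cells, and that limit was 91.8 CPM in the stricter ones. Gpx3, a secreted glutathione peroxidase, was at 319 CPM in 7 relapsed cells, and the predicted gene Gm12840 at 346 CPM in 11, with 61.8% of its UMIs in 1 cell, both against 0. The other cells of the relapsed library also carried Gas1, at 114 CPM against 41.6 CPM in the primary library. Il33, an alarmin cytokine, was at 377 CPM in 16 relapsed cells against 22.9 CPM in 1 primary cell.

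Matrix genes differed one by one. Mgp was at 22459.6 CPM in 21 of 22 relapsed against 2156 CPM in 1 of 8 primary cells. Fn1, fibronectin, was at 1610.1 CPM in 22 relapsed against 275 CPM in 2 primary cells, Lox at 577 against 68.8 CPM, and Fbn1, the microfibril protein fibrillin, at 352 against 91.7 CPM. Other matrix genes were close. Sparc was at 2004 (1876 to 2139) CPM in relapsed against 1628 (1272 to 2054) in primary cells, and Bgn, a proteoglycan, at 1176 (1079 to 1280.3) against 1078 (792 to 1434). Of the 25 fibrillar and matrix genes 22 were measured, 15 higher and 7 lower, with a median log2 ratio of 0.50 against -0.31 over 5712 genes, and intervals were apart for 5 higher and 0 lower.

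The collagens and proteoglycans that chose the cells describe them only. Col1a1 was at 1009 CPM in relapsed against 1147 in primary cells, Dcn, decorin, at 1515 against 2752, and Col3a1 at 993 against 2064. Slc6a13 was at 19.8 CPM in relapsed against 367 CPM in primary cells.

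Genes that were lower in relapsed fibroblast cells included a collagen and chemokines. Col15a1, a basement membrane collagen, was at 4.41 CPM in 1 of 22 relapsed against 413 CPM in 5 of 8 primary cells, a 93.7-fold difference that rests on 2 and 18 UMIs. Vwa1, a matrix protein, was at 33.0 CPM in 7 relapsed against 482 CPM in 5 primary cells, and Fxyd6, a sodium pump regulator, at 41.8 CPM in 8 against 688 CPM in 7. Ccl2, a monocyte chemokine, was at 15.4 CPM in relapsed against 642 CPM in primary cells, 82.1% of it in 1 cell. Ccl11, an eosinophil chemokine, had 0 UMIs in relapsed cells against 252 CPM in 4 of 8 primary cells. Cxcl12, which the meninges secrete to guide cells of the external granule layer, was at 240.1 CPM in 20 relapsed against 665 CPM in 6 primary cells.

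The layer markers did not place the cells in 1 meningeal layer. Foxc1, a transcription factor of meningeal fibroblasts, was in 20 of 22 relapsed and 5 of 8 primary cells at 231 (189 to 280.0) and 252 (126 to 451) CPM. Aldh1a2, the retinoic acid enzyme of the arachnoid and dura, was at 61.7 CPM in 7 relapsed against 183 CPM in 2 primary cells. Ptgds, the arachnoid prostaglandin synthase, was at 187 CPM in 7 relapsed cells, 69.4% of it in 1 cell, against 0 in primary cells. Cldn11, a claudin that arachnoid barrier cells and oligodendrocytes share, was at 1377 CPM in 17 of 22 relapsed against 206 CPM in 2 of 8 primary cells, and made 625 of the 628 UMIs of the oligodendrocyte list in relapsed fibroblast cells. Of 22 layer genes 15 were measured, 3 higher and 12 lower, with a median log2 ratio of -0.94, and intervals were apart for 2 higher and 2 lower. Apod was similar, at 10039 CPM (9749.9 to 10335) in relapsed and 10459 (9521 to 11464) in primary cells.

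**Figure D4:**
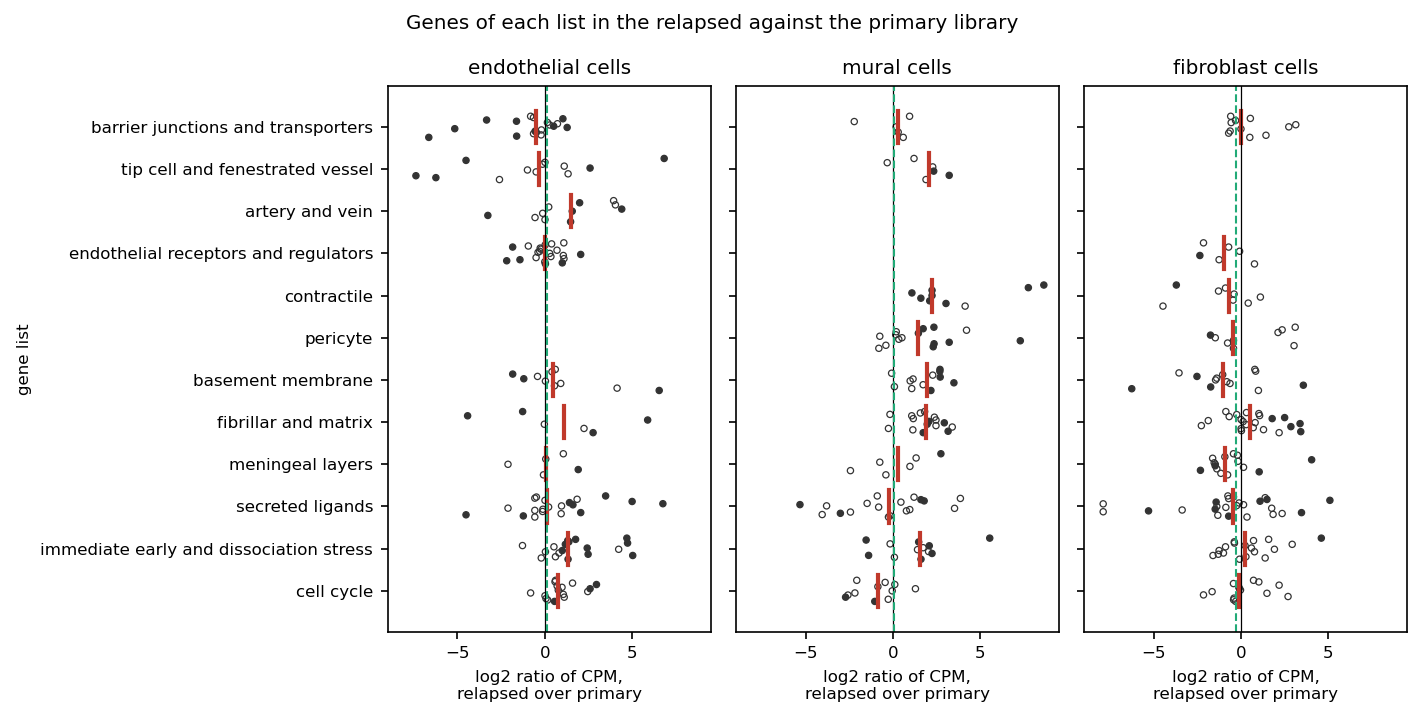
Log2 ratio of CPM, relapsed over primary, of each gene (dot) in each list (row) and set (panel). Filled dots are genes with at least 20 UMIs whose intervals did not overlap, the red bar is the list's median, and the green dashed line is the median of all genes measured (0.11, 0.04 and -0.31); the 9 contractile genes in mural cells all lie right of 0.

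The sorted astrocyte libraries gave replicated groups that the rule had not used, and vascular genes were present in some of them at widely different levels. The labels call them astrocytes, but oligodendrocyte precursor markers summed to more CPM than astrocyte markers in all 3 stroma A libraries and in stroma B replicate 3, with values below. Cldn5 was at 1.11, 5.23 and 3.13 CPM in the stroma B libraries 1 to 3, against 0.228, 44.6 and 129 CPM in the stroma A libraries 1 to 3. Rgs5 was at 5.99, 3.90 and 3.13 CPM in stroma B, against 0.684, 78.7 and 313 CPM in stroma A. Col1a1 was at 5.32, 61.1 and 3.32 CPM in stroma B, against 2.40, 19.0 and 168 CPM in stroma A. For Cldn5 and Rgs5 stroma A replicates 2 and 3 were the highest, stroma A replicate 1 was the lowest of the 6 for these 3 genes, and the groups overlapped. Acta2, Tagln and Myl9 had their highest value in stroma B replicate 2. Acta2 was at 4.88, 112 and 5.71 CPM in the stroma B libraries 1 to 3, against 0.799, 6.88 and 28.0 CPM in the stroma A libraries 1 to 3.

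None of the vascular or fibroblast markers passed the test between the groups. The log2 fold change of stroma B over stroma A was -4.91 ± 1.59 (SE) for Rgs5 with an adjusted p of 0.150, and -4.18 ± 1.56 for Cldn5 with an adjusted p of 0.188, by edgeR's quasi-likelihood test with Benjamini-Hochberg adjustment. Of 14176 genes tested, 0.388% were higher and 0.275% lower in stroma B at an adjusted p under 0.05, 0.663% in all, while 0 of the 14 endothelial, 13 tested mural and 14 fibroblast markers were. The fit put all 14 endothelial markers lower in stroma B; their log2 fold changes had a median of -3.37, against -0.03 over all genes tested, and 9 had an unadjusted p under 0.05. For mural markers 3 of 13 (Acta2, Tagln and Myl9) were fitted higher, with a median of -1.84 and 4 under that p, and for fibroblast markers 6 of 14, with a median of -0.57 and 3 under it. Under the same unadjusted p were 3095 of all 14176 genes tested. DESeq2 called 6 endothelial, 4 mural and 1 fibroblast markers, against 786 genes higher and 942 lower among all 19969 it was run on. Values of the groups did not overlap for 0 endothelial, 1 mural and 3 fibroblast markers, against 27.2% of all genes tested.

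In bulk libraries fewer cells of a type and less RNA per cell cannot be told apart. The 6 endothelial rule genes summed to 12.1, 43.5 and 29.9 CPM in stroma B, against 10.0, 200.8 and 587 CPM in stroma A. Markers of microglia followed the same libraries, at 67.4, 39.3 and 12.9 CPM in stroma B against 6.84, 304 and 1538.5 CPM in stroma A. Astrocyte markers, at 4789.9, 6665 and 1586 CPM in stroma B against 1180.1, 437 and 1111 CPM in stroma A, were detected in every library. Oligodendrocyte precursor markers were at 1960.1, 2151 and 9979 CPM in stroma B against 18239, 10260 and 10263 CPM in stroma A. The mural and fibroblast lists share Cspg4 and Pdgfra with that cell type, and the part of these cells was not tested.

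**Figure D5:**
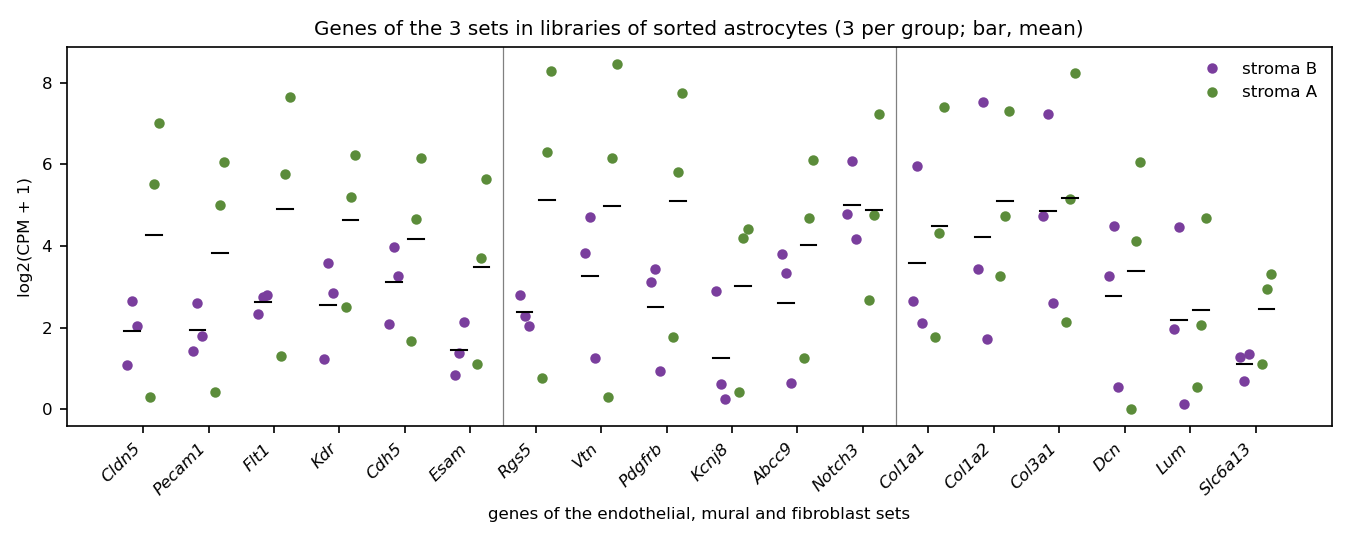
Log2 of CPM plus 1 (vertical axis) of the 18 rule genes in each sorted astrocyte library, stroma B in purple and stroma A in green, with bars at the mean of 3. Stroma A spans the wider range for most genes, and its replicate 1 lies within or below the stroma B points for the endothelial genes.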

How the data were processed

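Single-cell libraries of dissociated tumours were made on the Chromium system, per the labels' protocols, and the authors deposited raw UMI counts for each gene in each cell. Cell Ranger, STAR and Seurat, with build mm10, are named in the submitters' processing notes without roles. For the sorted astrocytes the authors deposited a table of read counts per gene; how reads were counted, on which annotation and strand, is not given in the sources used here. No column of per-sample values was left unused.

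Cells were kept at 500 detected genes or more and 10% mitochondrial UMIs or less. UMIs were summed per gene over the cells of a set in each library and expressed per 1000000 UMIs of the set (CPM). Levels have exact Poisson and shares exact Clopper-Pearson intervals at 95%. With 1 library per condition and cells not being replicates, no test was made between the tumours. Log2 ratios add 0.5 UMI to each sum; a level of 0 was compared at a limit of 3 UMIs over the set. Lists use genes with at least 10 UMIs over both libraries in the set.

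The genes named were the 10 with the largest ratio to the other kept cells in each set (100 CPM or more, in 25% of cells or more, rule genes left out), and the 5 with the largest ratio in each direction between libraries, among genes with at least 20 UMIs, a UMI in 20% of the cells of the higher library and intervals apart. From the 16 lists a few genes were taken by UMIs or ratio. The members and lists were chosen with earlier results of these data known. Scrublet's automatic threshold marked 0 cells in both libraries; as an alternative the 6% with the highest scores were removed, which took 0 members. Gene positions are from GENCODE M21 and promoters from RefSeq (GRCm38.p6).

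The 6 sorted libraries held 6718165 to 11798735 reads. They were compared with edgeR 4.0.16 (quasi-likelihood test, trimmed mean of M values, filter on low counts by group, Benjamini-Hochberg over 14176 genes) in R 4.3.3. The column of stroma A replicate 2 carries a further suffix to its title and was matched by the shared start. Nothing in the labels says that replicates came from separate mice, so p-values measure the spread between these libraries, which may be technical. Stroma B replicate 1 and stroma A replicate 3 share a number in their titles that the labels do not explain, and the test treats the 6 as independent. Alternatives were DESeq2 1.42.0, upper-quartile factors, no filter, leaving out each library, and for cells other thresholds, thinning to 2000 UMIs for the shares, the mean of single cells and leaving out the largest cell. The statistics were tested on simulated data. Cells were handled in Python 3.11.15 with scanpy 1.11.5 and scipy 1.17.1.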

Additional observations from a re-analysis of the deposited data

Results flagged for a closer look

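For 4 genes the intervals of the relapsed and primary levels were apart in opposite directions in 2 sets, by more than 3 on the log2 scale in each. A difference between sets was not tested, and in each gene at least 1 of the 2 directions rested on 1 cell. The log2 ratio of Spp1, relapsed over primary, was 7.52 in fibroblast cells and -4.84 in mural cells, where its 21 primary UMIs came from 1 cell. Lcn2 had 4.66 in mural cells, where 75 relapsed UMIs came from 1 cell, and -7.07 in endothelial cells. Acta2 had 8.64 in mural cells and -3.71 in fibroblast cells, where all primary UMIs came from 1 cell. Fabp7, a fatty acid binding protein of glia, had 3.21 in mural and -6.86 in endothelial cells, and 99.6% of its UMIs on the higher side lay in 1 cell in both sets. The relapsed mural cell was the same for Lcn2 and Fabp7, and it also held 220 of the 223 astrocyte marker UMIs of its set. In all, 50 genes were apart in opposite directions in 2 sets.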

How the results depend on the processing

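The shares kept within their intervals in all 48 alternatives. Whether the intervals of the 2 fibroblast shares stayed apart in them was not tested. Of 283 alternatives for list medians, 257 kept the sign, and the other 26 lay in 13 medians, none printed in the results. Without the cell with most UMIs the artery and vein (1.48) and the fibrillar and matrix (1.12) medians in endothelial cells were 0.51 and -0.44, the contractile median in fibroblast cells (-0.68) was 1.82, and the cell cycle median in mural cells (-0.86) was 0.22. The last was 0.074 without members with granule lineage RNA. All 210 alternatives for the 30 named genes kept the sign, with 8 moved, in Wif1, Lyz2 and Gap43 of mural cells. The 30 genes were chosen for their large ratios in these same cells, many with 0 UMIs in 1 library. A kept sign was thus largely set by that choice. The 94 genes called between sorted groups became 1728 by DESeq2 and 227 by edgeR, both run on 19969 genes with no filter on low counts, and 0 to 1342 when 1 library was left out (1342 without stroma B replicate 3, 0 without any of the other 5). Markers called were 0 in each list; DESeq2 called 6 endothelial, 4 mural and 1 fibroblast. Leaving out 1 library gave 0 to 1 mural and 0 to 1 fibroblast markers, and 0 endothelial. Fitted log2 fold changes, stroma B over stroma A, turned sign for 6 genes. Col1a2 (0.04) was -0.060 with upper-quartile factors. Leaving out 1 library moved Col1a2 from -3.41 (stroma B replicate 2) to 1.95 (stroma A replicate 3), and, between the same 2 omissions, Lum from -2.68 to 2.18, Notch3 from -1.46 to 1.23, Col1a1 from -3.86 to 1.14, Col3a1 from -2.91 to 1.68 and Dcn from -2.62 to 0.33. The cause was not tested. No paired analysis was possible because the sorted groups share fewer than 2 replicate numbers in their titles. The few cells limit every level: a gene with 0 UMIs could lie at up to 84.6 CPM in the 8 primary fibroblast cells.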

Other observations

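Hedgehog, cell cycle and antigen presentation genes were also measured in the 3 sets. Ptch1, the Hedgehog receptor whose gene is deficient in these mice, was at 109.7 CPM (71.0 to 162) in relapsed against 30.7 (8.37 to 78.6) in primary endothelial cells, and at 19.9 (4.10 to 58.1) against 343 (224 to 503) in mural cells. In mural cells with at least 10 set UMIs the primary value was 151 and the intervals overlapped; the other kept cells had 145 CPM in the relapsed and 137 CPM in the primary library. Cycling markers summed to 522, 458 and 249 CPM in relapsed endothelial, mural and fibroblast cells and 261, 449 and 161 CPM in primary ones, against 1501 and 1448 CPM in the other kept cells of the relapsed and primary libraries. B2m, the light chain of class I antigen presentation, was at 703 CPM (576 to 850.3) in relapsed against 291 (182 to 440.0) in primary mural cells. With at least 10 set UMIs the primary value was 483 (276 to 784) and the intervals overlapped, as the intervals of all cells did in endothelial and in fibroblast cells. Metallothionein 1, Mt1, a metal-binding stress protein named after its values were seen, had 842 UMIs in relapsed against 16 in primary mural cells, with 92.8% of the relapsed UMIs in 1 cell, and 10 against 43 in endothelial cells.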
